A study of Rattus norvegicus with 10 samples.

Results

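Genes that carry and restrain Wnt signals were followed in RNAseq of primary rat oligodendrocytes (OLs) and oligodendrocyte progenitor cells (OPCs). The 10 members were picked as Wnt effectors and feedback genes with earlier results of these data known, and were looked up by symbol. Of these, 9 of them were found among 23487 genes, while Notum was not found by symbol and has no value here. The 10 libraries were made from Sprague-Dawley rat cortices of postnatal days 1 to 3, with 2 libraries in each of 5 groups. OL cultures received a miR-145 mimic (OL miR-145), miR-145 and miR-219 mimics together (OL miR-145+miR-219) or a scrambled mimic (OL miR-ctl), grew in medium with triiodothyronine and CNTF, and were collected 5 days after transfection. OPC cultures received an inhibitor of miR-145 (OPC anti-miR-145) or a scrambled inhibitor (OPC anti-miR-ctl), and were collected 24 h after transfection. The labels give transfection with small RNA at 30 nM for all groups, and no untransfected cells were sequenced. The RNAseq methods of the study name lentiviral delivery of miR-145 instead, while its results name mimics for this experiment, and mimics were taken here. A treatment tag of the OL miR-145 libraries also names miR-219, but it is miR-145 alone in the title and description, which were followed here. The cells were enriched from mixed glial cultures by shaking. The study defines a replicate of a primary culture as cells from an individual mouse, and gives no separate definition for rat cultures.

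In the canonical Wnt pathway, a complex built on Axin proteins marks β-catenin for destruction until a Wnt ligand engages a Frizzled receptor and its LRP co-receptor. β-catenin then accumulates and works in the nucleus with transcription factors of the TCF/LEF family, which also switch on inhibitors of the pathway as feedback. In the OL lineage, strong Wnt signalling is known to delay differentiation, while Tcf7l2 is expressed as OPCs become OLs and is needed for their differentiation. The other route considered here is planar cell polarity signalling, in which Prickle, Daam and Dishevelled proteins take part. The study lists Prickle1, with Nkd2, as a negative regulator of Wnt signalling.

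The small RNAs set the comparisons. The mature miR-145-5p that the mimic copies is given from RefSeq (rat build GRCr8, chr18:57370033-57370055, minus strand), and beside it miR-219a-5p (chr3:33516561-33516581, minus strand), since the labels do not say which miR-219 product was used. Capitals mark the seed, bases 2 to 8, which pairs with target transcripts. The seeds differ.
miR-145-5p: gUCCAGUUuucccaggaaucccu
miR-219a-5p: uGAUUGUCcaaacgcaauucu

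Libraries held 33505668 to 42684176 counts assigned to genes. Levels are counts per 1000000 (CPM) after TMM scaling over all 10 libraries. Fold changes are on the log2 scale with their standard error (SE). Since levels are not divided by transcript length, they are compared between libraries and not between genes. Genes of maturing OLs (10 of 10 markers found) summed to 17900 to 37290 CPM in OL libraries and to 1767 to 1897 CPM in OPC libraries. The 7 of 8 OPC markers found summed to 2397 to 3094 CPM in OL libraries and to 5889 to 8032 CPM in OPC libraries. Between the control groups, 6 of the 7 were called lower in OLs and 1 higher. Gpr17 went against the sum, at 183.3 to 375.1 CPM in OL libraries and 21.42 to 33.14 CPM in OPC libraries. Astrocyte markers (8 of 8 found) were not absent from OL libraries, where they summed to 5864 to 14410 CPM, against 478.1 to 783.6 CPM in OPC libraries. Microglia markers (10 of 10 found) summed to 375.6 to 1014 CPM in OL and to 886.6 to 1119 CPM in OPC libraries. In bulk RNA, fewer cells of a type and less RNA per cell cannot be told apart.

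**Figure D1:**
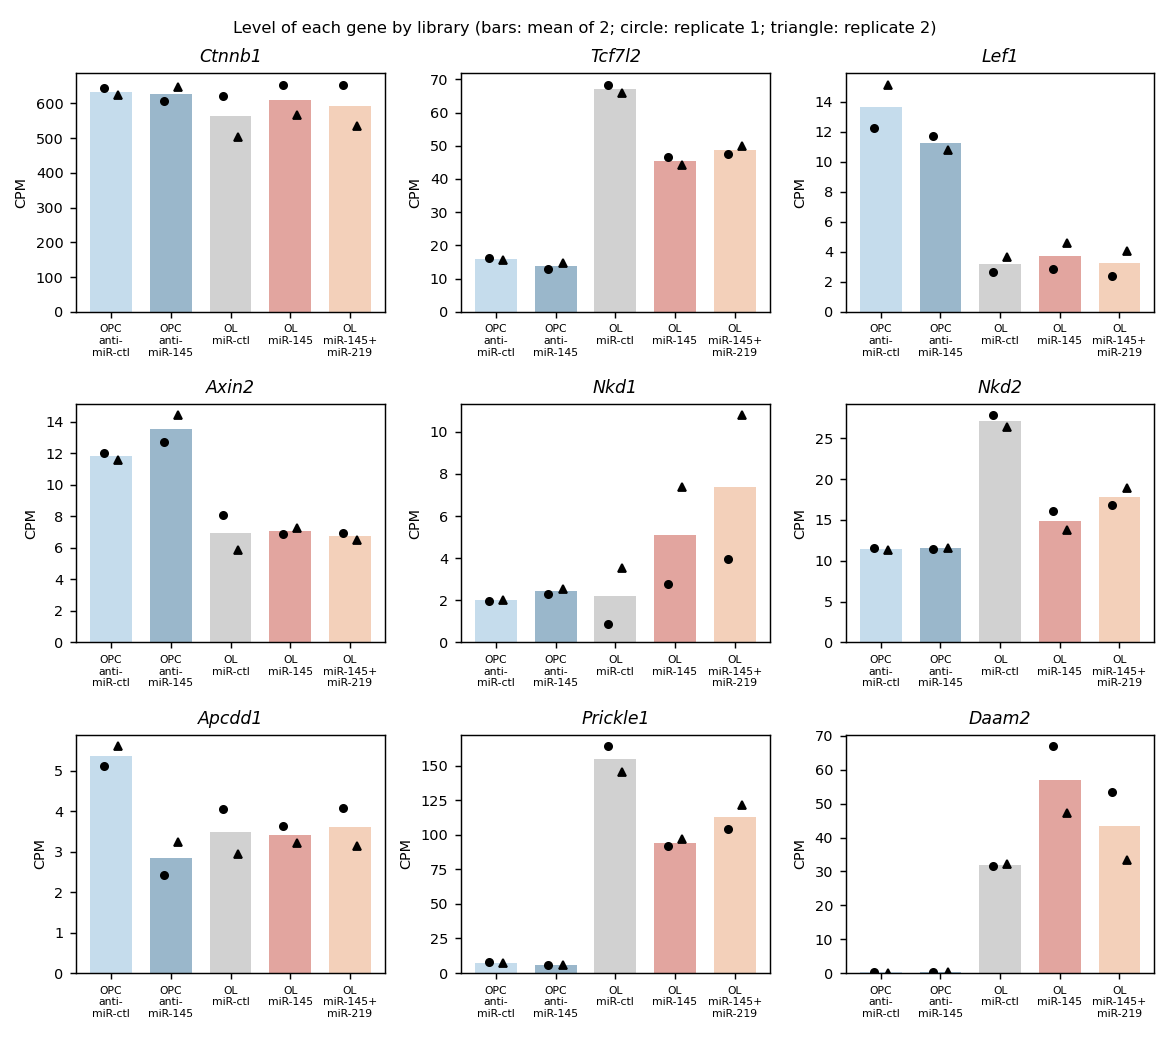
Level of the 9 genes in CPM (y axis, from 0) in each of the 5 groups, with bars for the mean of 2 libraries, circles for replicate 1 and triangles for replicate 2. Tcf7l2, Nkd2 and Prickle1 are highest in OL miR-ctl, Lef1 and Axin2 in OPCs, and in the 3 OL groups replicate 2 of Nkd1 lies above replicate 1.

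Control OLs were compared with control OPCs. Of the 9 genes, 4 were higher in OLs and 2 were lower, where 57.5% of all 15721 genes tested were called (edgeR's quasi-likelihood test, Benjamini-Hochberg adjusted p under 0.05, 28.8% higher and 28.7% lower), so the share called among them, 6 of 9, lies near that of all genes. Groups were apart for 4 genes higher and 4 lower, where 81.8% of all genes were apart (41.7% higher, 40.1% lower), and 7 of the 9 had an unadjusted p under 0.05, where 62.9% did. These groups also differ in medium, in days after transfection and in the kind of scrambled RNA, and these cannot be told apart from the stage of the cells. Astrocyte markers were higher in OL miR-ctl too, for 7 of 8.

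Among the nuclear effectors, Tcf7l2 (ENSRNOG00000049232), a TCF/LEF factor, was at 68.4 and 65.9 CPM in OL miR-ctl and at 16.3 and 15.5 CPM in OPC anti-miR-ctl. The groups were far apart, with a log2 fold change of 2.07 (SE 0.09, edgeR adjusted p = 6.97e-05). Lef1 (ENSRNOG00000010121), another member of that family, ran the other way. It was at 2.66 and 3.68 CPM in OL miR-ctl and at 12.2 and 15.2 CPM in OPC anti-miR-ctl, a log2 fold change of -2.13 (SE 0.22, edgeR adjusted p = 0.00103). Ctnnb1 (ENSRNOG00000054172), which encodes β-catenin itself, was at 621.4 and 504.5 CPM against 643.5 and 625.0 CPM. Its log2 fold change of -0.19 (SE 0.12, edgeR adjusted p = 0.237) did not pass the test, although without OL miR-ctl replicate 1 it was -0.33 and passed.

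Among the feedback inhibitors, Nkd2 (ENSRNOG00000016103), which binds Dishevelled, was at 27.8 and 26.3 CPM in OL miR-ctl and at 11.6 and 11.3 CPM in OPC anti-miR-ctl. Its log2 fold change was 1.23 (SE 0.10, edgeR adjusted p = 0.000448). Axin2 (ENSRNOG00000055010), a scaffold of the destruction complex and a widely used readout of canonical signalling, was at 8.06 and 5.86 CPM in OL miR-ctl and at 12.1 and 11.6 CPM in OPC anti-miR-ctl. The groups did not overlap, with a log2 fold change of -0.77 (SE 0.19, edgeR adjusted p = 0.0178), and the call was lost without OPC anti-miR-ctl replicate 1 (adjusted p = 0.113) or replicate 2 (0.0939). Apcdd1 (ENSRNOG00000043304), a membrane protein that inhibits Wnt at the cell surface, was at 4.04 and 2.94 CPM against 5.12 and 5.61 CPM. The groups were apart, but the log2 fold change of -0.63 (SE 0.22, edgeR adjusted p = 0.0548) was called only without the filter on low counts (adjusted p = 0.0482) or without OL miR-ctl replicate 1 (0.00363).

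Nkd1 (ENSRNOG00000014293), a relative of Nkd2, was at 0.85 and 3.53 CPM in OL miR-ctl and at 1.96 and 2.03 CPM in OPC anti-miR-ctl. The OL libraries lay on both sides of the OPC libraries. The log2 fold change of 0.11 (SE 0.64, edgeR adjusted p = 0.90) turned to -1.22 without OL miR-ctl replicate 2 and rose to 0.82, with a call, without replicate 1.

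Prickle1 and Daam2 had the largest log2 fold changes of the 9 in this comparison. Prickle1 (ENSRNOG00000022772), a core polarity protein, was at 164.5 and 145.5 CPM in OL miR-ctl and at 7.99 and 7.09 CPM in OPC anti-miR-ctl, 20.3-fold higher in OLs (log2 fold change 4.35, SE 0.12, edgeR adjusted p = 4e-05). Daam2 (ENSRNOG00000053945), a formin that binds Dishevelled, was at 31.7 and 32.2 CPM in OL miR-ctl. In OPC anti-miR-ctl it had only 15 and 4 counts, 0.35 and 0.11 CPM, and in OPC anti-miR-145 9 and 10 counts. Its log2 fold change was 7.04 (SE 0.32, edgeR adjusted p = 8.99e-05), and it ranged from 6.48 to 8.11 with 1 library left out.

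**Figure D2:**
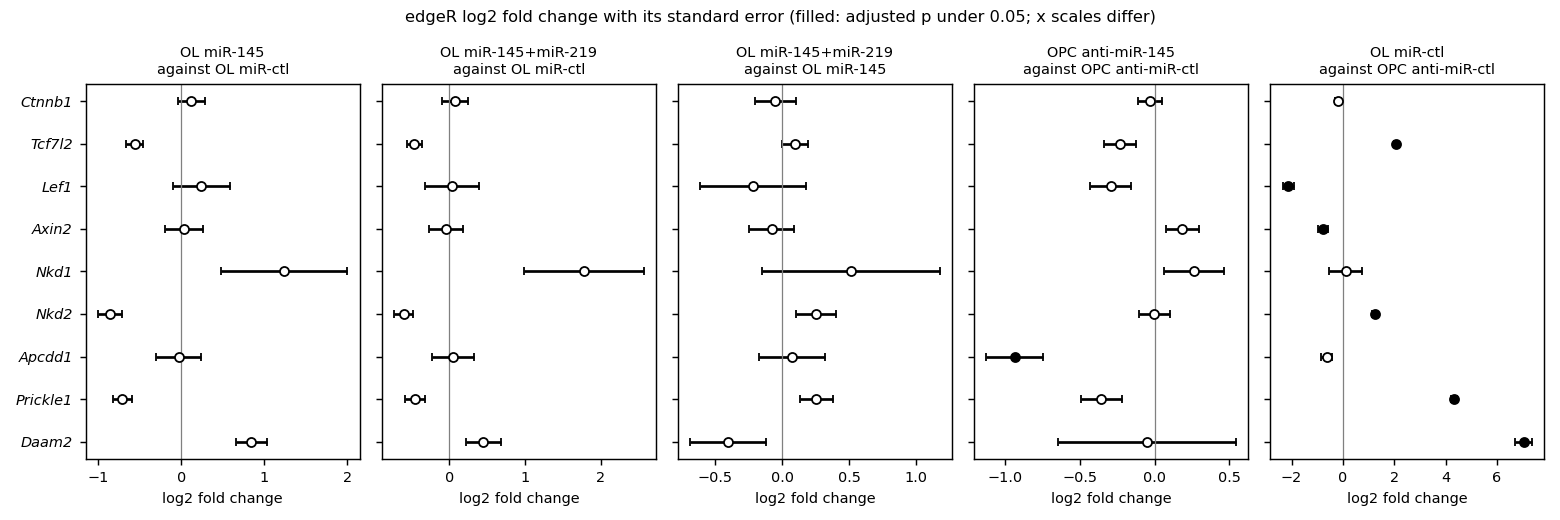
log2 fold change (x axis, a different scale in each panel) of the 9 genes in the 5 comparisons, with bars for the SE and filled circles for an edgeR adjusted p under 0.05. Filled circles stand for 6 genes in OL miR-ctl against OPC anti-miR-ctl and for Apcdd1 in OPCs given the inhibitor, and none stands in the comparisons among OL groups.

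In OLs given the miR-145 mimic, Tcf7l2, Prickle1 and Nkd2 were each lower in both libraries than in both OL miR-ctl libraries, Daam2 was higher in both, and the other 5 genes overlapped. Groups did not overlap for 47.3% of the 15461 genes tested (22.9% higher, 24.4% lower). All 9 passed the filter on low counts here and in the other comparisons, and their median log2 fold change was 0.03, where that of all genes was -0.01. By edgeR's quasi-likelihood test 0 of the 9 and 0 of all genes (0%) had an adjusted p under 0.05. At an unadjusted p under 0.05 there were 4 of the 9, where 13.4% of all genes tested had one. DESeq2 on the same libraries called the same 4 genes, where it called 4.2% of all genes tested, and fitting the 5 groups at once, edgeR called Prickle1 and Nkd2 among 0.511% of all genes. The study itself singled out Tcf7l2, Prickle1 and Nkd2 as lower in these libraries, so their direction here is not independent evidence.

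Tcf7l2 was at 46.5 and 44.1 CPM in OL miR-145, against the 68.4 and 65.9 CPM of OL miR-ctl. Within each group the libraries lay close together, and the log2 fold change was -0.56 (SE 0.10, edgeR adjusted p = 0.164, DESeq2 adjusted p = 0.00955). The level in OL miR-145 remained above that of all 4 OPC libraries, which ran from 12.8 to 16.3 CPM. Lef1, at 2.85 and 4.60 CPM, and Ctnnb1, at 654.3 and 567.4 CPM, overlapped with OL miR-ctl. Their log2 fold changes were 0.24 (SE 0.34) and 0.12 (SE 0.16), and each changed sign when 1 library was left out, Lef1 to -0.15 without OL miR-145 replicate 2 and Ctnnb1 to -0.03 without OL miR-ctl replicate 2.

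Nkd2 was at 16.04 and 13.7 CPM in OL miR-145, with a log2 fold change of -0.86 (SE 0.14, edgeR adjusted p = 0.158, DESeq2 adjusted p = 0.00115). With 1 library left out it ranged from -0.97 to -0.75. Nkd1 was at 2.79 and 7.40 CPM, and its groups overlapped. The log2 fold change of 1.24 had a SE of 0.76, and with 1 library left out it ranged from 0.36 to 2.58.

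Axin2 was at 6.87 and 7.28 CPM and Apcdd1 at 3.62 and 3.21 CPM in OL miR-145, both within the range of the OL miR-ctl libraries. Their log2 fold changes were 0.03 (SE 0.23) and -0.03 (SE 0.27). For Axin2 the sign turned without OL miR-145 replicate 2 (-0.02) or OL miR-ctl replicate 2 (-0.19), and for Apcdd1 without OL miR-145 replicate 2 (0.05) or OL miR-ctl replicate 1 (0.22).

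Prickle1 was at 91.8 and 96.8 CPM in OL miR-145, 1.64-fold lower than in OL miR-ctl (log2 fold change -0.71, SE 0.12, edgeR adjusted p = 0.158, DESeq2 adjusted p = 0.000589). Both libraries remained far above the OPC libraries, of which none exceeded 7.99 CPM. Of the markers of maturing OLs, 4 of 10 were lower in both OL miR-145 libraries and none was higher in both. Their summed level was 17900 and 27260 CPM against 20740 and 34540 CPM. Of the OPC markers found, 4 of 7 were also lower in both and none was higher in both. Their sums overlapped, at 2956 and 2614 CPM against 3094 and 2397 CPM. Of all genes tested, 24.4% were lower with groups apart. The list of maturing OL markers did not move as a whole. Mog, a late myelin gene, was at 17.65 and 38.71 CPM against 9.188 and 23.18 CPM, and Mobp, another myelin gene, at 58.07 and 131.8 CPM against 14.94 and 68.64 CPM, with groups that overlapped. The part of either cell stage in the lower Tcf7l2, Nkd2 and Prickle1 was not tested.

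Daam2 was at 67.1 and 47.1 CPM in OL miR-145 against 31.7 and 32.2 CPM in OL miR-ctl. Both mimic libraries were above both controls and lay far from each other, and the log2 fold change was 0.84 (SE 0.19, edgeR adjusted p = 0.187, DESeq2 adjusted p = 0.0101). All 8 astrocyte markers were also higher in both OL miR-145 libraries, and their summed level was 14410 and 9817 CPM against 6869 and 5864 CPM. Gfap, the intermediate filament gene of astrocytes, was at 9675 and 6713 CPM against 4794 and 4172 CPM. Set against the summed astrocyte markers, Daam2 was at 4.65 and 4.80 CPM per 1000 CPM in OL miR-145, at 4.61 and 5.49 in OL miR-ctl and at 4.46 and 4.70 in OL miR-145+miR-219. On that scale the OL groups overlapped. Gfap made up most of that sum in every OL library. In OPC libraries, where the summed astrocyte markers were low, the value was 0.14 to 0.47. Other genes made up the sum there. In OPC anti-miR-ctl, Gfap was at 8.13 and 7.80 CPM and Slc1a3 at 398.4 and 375.8 CPM. The value in OPCs is therefore not on the same scale as that in OLs. The part of astrocytes in the higher Daam2 was not tested.

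**Figure D3:**
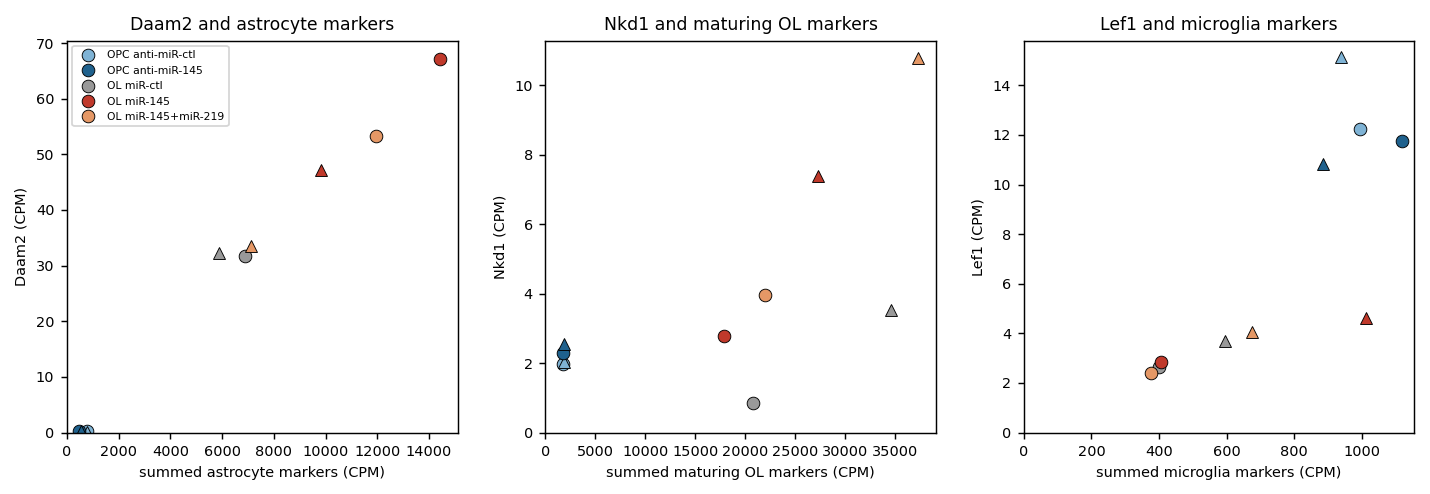
Level of Daam2, Nkd1 and Lef1 in CPM (y axes) against the summed level of astrocyte, maturing OL and microglia markers in CPM (x axes), a point per library, with circles for replicate 1 and triangles for replicate 2. Among OL libraries the point highest in Daam2, OL miR-145 replicate 1 with 67.1 CPM, is also the highest in astrocyte markers with 14410 CPM.

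The replicates of Nkd1 stood apart in the same way in every OL group. Replicate 2 was 4.13 times replicate 1 in OL miR-ctl, 2.65 times in OL miR-145 and 2.73 times in OL miR-145+miR-219, but 1.03 and 1.12 times in the OPC groups. The summed level of maturing OL markers was likewise higher in replicate 2 of each OL group, 34540 against 20740 CPM in OL miR-ctl, 27260 against 17900 CPM in OL miR-145 and 37290 against 21980 CPM with both mimics. Microglia markers were higher in these 3 libraries as well, at 595.0, 1014 and 674.2 CPM against 400.6, 405.4 and 375.6 CPM. Their part in the level of Nkd1 was not tested.

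With both mimics, Tcf7l2, Prickle1 and Nkd2 again lay below OL miR-ctl in both libraries, and Nkd1 and Daam2 lay above it in both. Groups did not overlap for 36.8% of 15436 genes (17.2% higher, 19.5% lower), and edgeR called 0 of the 9 and 0 of all genes (0%). DESeq2 called 0 of the 9 and 0.687% of all genes tested. At an unadjusted p under 0.05 there were 3 of the 9, where 6.19% of all genes tested had one. This comparison shares its control libraries with that of OL miR-145, so the 2 are given side by side and not as support for each other.

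Tcf7l2 was at 47.5 and 49.9 CPM with both mimics, a log2 fold change of -0.46 (SE 0.10, edgeR adjusted p = 0.80). Prickle1 was at 104.5 and 122.0 CPM, with -0.45 (SE 0.13), and Nkd2 at 16.8 and 18.9 CPM, with -0.60 (SE 0.13). Nkd1 was at 3.95 and 10.8 CPM, a log2 fold change of 1.77 (SE 0.79, edgeR adjusted p = 0.814) that ranged from 0.86 to 3.10 with 1 library left out. Daam2 was at 53.4 and 33.5 CPM, and its second library lay just above the controls (log2 fold change 0.45, SE 0.23). Lef1 (2.41 and 4.07 CPM), Axin2 (6.97 and 6.52 CPM), Apcdd1 (4.08 and 3.15 CPM) and Ctnnb1 (652.3 and 534.9 CPM) overlapped with OL miR-ctl, and the sign of each turned with some library left out.

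Adding miR-219 to the miR-145 mimic left Tcf7l2, Prickle1 and Nkd2 slightly above OL miR-145 in both libraries, and the other 6 genes overlapped. Groups did not overlap for 24.8% of 15501 genes (13.2% higher), and 0 of the 9 and 0 of all genes were called by edgeR (0%), with 0 of the 9 and 1.47% of all genes at an unadjusted p under 0.05. By DESeq2 0 of the 9 and 9 of all genes were called (0.0581%). The log2 fold changes were 0.10 for Tcf7l2 (SE 0.10), 0.26 for Prickle1 (SE 0.12) and 0.25 for Nkd2 (SE 0.15). Differences of this size were not shown to exceed the spread between libraries.

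In OPCs given the inhibitor of miR-145, Apcdd1 fell and was the only one of the 9 genes called, where edgeR called 28.1% of 15496 genes (12.1% higher, 16% lower). Apcdd1 was at 2.41 and 3.24 CPM in OPC anti-miR-145 and at 5.12 and 5.61 CPM in OPC anti-miR-ctl. Both inhibitor libraries lay below both controls, and the log2 fold change was -0.94 (SE 0.19, edgeR adjusted p = 0.0117). It was called by DESeq2 too (adjusted p = 0.0041) and ranged from -1.15 to -0.75 with 1 library left out.

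The other 8 genes did not pass the test in OPCs. Counting Apcdd1, groups were apart for 6 of the 9, where 68.5% of all genes tested were apart (35.9% higher, 32.7% lower), and 2 of the 9 had an unadjusted p under 0.05, where 40.9% of all genes did. Tcf7l2 was at 12.8 and 14.6 CPM against 16.3 and 15.5 CPM, a log2 fold change of -0.23 (SE 0.11, edgeR adjusted p = 0.158), and without OPC anti-miR-145 replicate 2 it was -0.31 and called (adjusted p = 0.034). Prickle1 was at 6.08 and 5.82 CPM against 7.99 and 7.09 CPM (log2 fold change -0.36, SE 0.14, edgeR adjusted p = 0.0933), and Lef1 was at 11.7 and 10.8 CPM against 12.2 and 15.2 CPM (-0.29, SE 0.14). Axin2 lay slightly higher with the inhibitor, at 12.7 and 14.4 CPM against 12.1 and 11.6 CPM (0.19, SE 0.11). Nkd1 was at 2.29 and 2.55 CPM against 1.96 and 2.03 CPM, with a log2 fold change of 0.27 (SE 0.20). Nkd2 was at 11.4 and 11.6 CPM against 11.6 and 11.3 CPM, and Ctnnb1 at 606.4 and 647.6 CPM against 643.5 and 625.0 CPM. For Nkd2 and Ctnnb1 the groups overlapped, with log2 fold changes of 0.00 (SE 0.10) and -0.03 (SE 0.08), and each was above 0 with 1 library left out. Among microglia markers, 6 of 10 were called higher and 4 lower in this comparison, and of the OPC markers 3 of 7 were called higher and 2 lower. Their part in the fall of Apcdd1 was not tested.

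Over the 5 groups, the order of mean levels was OL miR-ctl, both mimics, miR-145 alone, then the OPC groups for Tcf7l2, Prickle1 and Nkd2. For all 3 genes, neighbours among the mimic groups were not shown to differ. Lef1 and Axin2 were highest in the OPC groups, at 10.8 to 15.2 CPM and 11.6 to 14.4 CPM, and did not exceed 4.60 and 8.06 CPM in any OL library. The mean of Daam2 stood highest in OL miR-145, then in OL miR-145+miR-219 and OL miR-ctl, and near 0 in OPCs. For Daam2 too, neighbours in this order among the OL groups were not shown to differ. Libraries of OL miR-145 and OL miR-145+miR-219 overlapped. Apcdd1 was highest in OPC anti-miR-ctl and lowest in OPC anti-miR-145, and the OL libraries, at 2.94 to 4.08 CPM, overlapped with the latter. Ctnnb1 ran only from 504.5 to 654.3 CPM over all 10 libraries.

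The likeness of other genes to each member was measured as the root mean square difference in log2(CPM + 1), centred on each gene's own mean over the 10 libraries, among 12522 genes with a symbol and a mean of at least 1 CPM. Nearest to Tcf7l2 were Acsl1, a fatty acid activating enzyme, at 0.09 and Amotl2 at 0.10. Map6d1 and Dbndd2 were nearest to Prickle1, at 0.14 and 0.15. Nkd2 lay nearest to Ints14 and Gpd1l (both 0.13) and Axin2 to Sipa1l3 and Trim8 (0.06 and 0.08). For Nkd1 the nearest were Unc5b, a netrin receptor, at 0.26 and Mog, a late myelin gene, at 0.27. Lef1 lay nearest to Clec4a, a C-type lectin receptor gene, at 0.12 and Rgs18, a regulator of G protein signalling, at 0.16. Apcdd1 lay nearest to Hes1, a transcriptional repressor of the Notch pathway, and to Arntl (both 0.11). Ctnnb1 lay nearest to Ppp1r3d and Ears2 (both 0.05). For Daam2 they were Tppp3 and Ret, a receptor tyrosine kinase, at 0.23 and 0.24. These distances are descriptions over 10 libraries that fall mostly into OL and OPC levels.

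Lef1 was also set beside microglia markers. In OL miR-145 it was at 2.85 and 4.60 CPM where microglia markers summed to 405.4 and 1014 CPM, and in OPC anti-miR-ctl it was at 12.2 and 15.2 CPM where they summed to 995.4 and 937.8 CPM. The markers did not move as 1 list. Aif1 was at 51.95 CPM and Itgam at 33.05 CPM in OL miR-145 replicate 2, against 204.2 and 219.1 CPM for Aif1 and 103.8 and 89.59 CPM for Itgam in OPC anti-miR-ctl, whereas C1qa was at 202.8 CPM against 85.61 and 80.66 CPM. The part of microglia in the level of Lef1 was not tested.

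Promoter windows of 250 bases before to 50 after the start site were taken from RefSeq (GRCr8) for the 9 genes and searched for CTTTGAT and CTTTGAA, the core that TCF/LEF factors recognise, on both strands. Sox factors bind similar letters. Of the 9 windows, 2 held a match, and 8.73% of all 33469 windows did. The windows of Axin2 and Nkd1 are shown because they were the ones with a match. Both genes are known as feedback targets. The windows of Nkd2, Apcdd1 and Lef1 held no match and are not shown. Axin2 was higher in OPCs. The mean of Nkd1 was highest with both mimics in OLs, where its libraries lay far from each other, at 3.95 and 10.8 CPM. Without a replicate block and with no library left out, edgeR called Nkd1 in none of the 5 comparisons. Capitals mark the matches, at -232 and -132 from the start site for Axin2 (chr10:94398535-94398834, plus strand) and at -141 for Nkd1 (chr19:34722797-34723096, minus strand). Both are printed 5′ to 3′ in the direction of the gene.
Axin2: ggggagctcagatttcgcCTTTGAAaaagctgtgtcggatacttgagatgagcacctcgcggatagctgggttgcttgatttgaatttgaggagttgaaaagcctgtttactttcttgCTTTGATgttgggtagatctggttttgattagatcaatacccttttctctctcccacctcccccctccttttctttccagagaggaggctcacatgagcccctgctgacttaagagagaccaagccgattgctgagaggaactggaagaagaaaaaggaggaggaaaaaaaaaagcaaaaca
Nkd1: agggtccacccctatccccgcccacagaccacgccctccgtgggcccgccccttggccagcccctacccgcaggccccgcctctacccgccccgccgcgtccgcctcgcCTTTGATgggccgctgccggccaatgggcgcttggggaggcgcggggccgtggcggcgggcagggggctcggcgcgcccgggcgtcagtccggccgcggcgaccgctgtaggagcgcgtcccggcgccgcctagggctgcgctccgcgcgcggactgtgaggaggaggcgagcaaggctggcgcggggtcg
A match is a description of letters and not a site that these data show to be bound.

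The rest of the pathway was followed in 5 lists with 107 genes, of which 85 were found. In OL miR-ctl against OPC anti-miR-ctl, 36 of 83 tested were called higher and 20 lower, beside 57.5% called among all genes, with a median log2 fold change of 0.23 where that of all genes was 0.01. Of the extracellular and membrane inhibitors, 6 of 11 were higher and 3 lower. Rnf43, a ubiquitin ligase that removes Frizzled from the surface, was at 19.3 and 21.2 CPM in OL miR-ctl and at 0.60 and 0.49 CPM in OPC anti-miR-ctl (log2 fold change 5.18, SE 0.18, edgeR adjusted p = 5.17e-05). Draxin had a log2 fold change of 4.73, and the secreted inhibitor Sfrp4 was lower, at 0.78 and 0.55 CPM against 14.0 and 16.1 CPM (-4.50, SE 0.22). Of the receptors and co-receptors, 12 of 25 were higher and 7 lower, led by Celsr1, a polarity cadherin, at 12.7 and 10.3 CPM against 0.14 and 0.05 CPM. Of the ligands and their secretion genes 7 of 14 were higher and 1 lower, and Wnt16 had 186 and 177 counts in OL miR-ctl and 3 and 1 counts in OPC anti-miR-ctl. Dact1, a Dishevelled binding protein, was lower with a log2 fold change of -3.02. Among cytoplasmic signal carriers 8 of 19 were higher and 5 lower, and among nuclear cofactors 3 of 14 and 4.

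**Figure D4:**
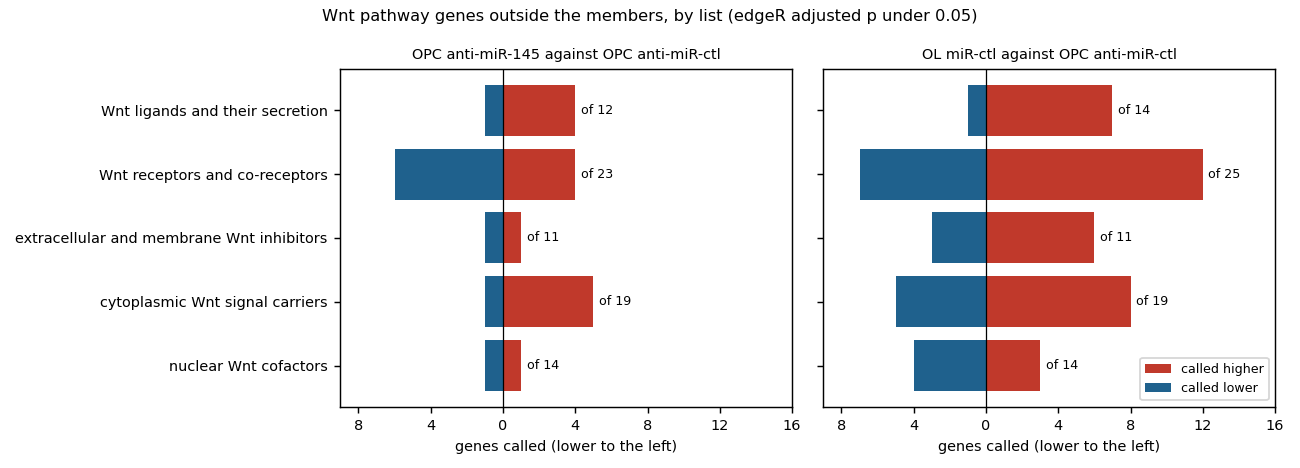
Number of Wnt pathway genes outside the members called higher (red, to the right) or lower (blue, to the left) in each of 5 lists, in OPC anti-miR-145 against OPC anti-miR-ctl and in OL miR-ctl against OPC anti-miR-ctl, with the number tested beside each bar. Extracellular and membrane inhibitors hold 6 higher and 3 lower of 11 in the OL comparison, and receptors hold 4 higher and 6 lower of 23 in OPCs given the inhibitor.

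In OPCs given the inhibitor, 15 of 79 pathway genes were called higher and 10 lower, near the 28.1% of all genes. Lgr4, a receptor for R-spondins, was at 11.8 ± 1.79 against 31.6 ± 2.11 CPM (SD over 2 libraries, log2 fold change -1.44, SE 0.12, edgeR adjusted p = 0.000293). Wnt5a, a ligand of the polarity route, was lower (log2 fold change -1.49), as was Kremen1, a co-receptor of Dkk inhibitors (-0.76). Lgr5, a relative of Lgr4, was called with a log2 fold change of -0.83 (edgeR adjusted p = 0.0474), a call that was lost with DESeq2 (0.146), with a replicate block (0.0712) and with all 5 groups in a single fit (0.117). Btrc, the ubiquitin ligase subunit that recognises β-catenin, was at 147.2 ± 2.33 against 77.5 ± 1.26 CPM (SD over 2 libraries, log2 fold change 0.91, SE 0.08, edgeR adjusted p = 0.000274). The ligand Wnt7b was higher by 0.78, a call that was lost with all 5 groups in a single fit (edgeR adjusted p = 0.0622). Leaving out OPC anti-miR-ctl replicate 1 or 2 lowered the 25 calls to 10 or 9, and the 56 calls between control OLs and OPCs to 27 or 25.

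Among OLs given the miR-145 mimic, edgeR called 0 of 85 pathway genes, and 12 were higher and 5 lower at an unadjusted p under 0.05, beside 13.4% of all genes. DESeq2 called 6 of them, beside 4.2% of all genes. The smallest p belonged to Fzd1, a Frizzled receptor, at 156.4 ± 25.8 against 78.8 ± 4.85 CPM (SD over 2 libraries, log2 fold change 0.99, SE 0.15, edgeR adjusted p = 0.158), followed by Wnt5a (0.98), Wnt7a (1.03) and Celsr1 (0.88). All 4 were above OL miR-ctl in both libraries, beside astrocyte markers that were also higher in both. So were all 4 fibroblast and mural markers tested and 4 of 10 microglia markers, and none of either list was lower in both. Fibroblast and mural markers summed to 10.5 and 54.2 CPM, against 3.77 and 4.38 CPM in OL miR-ctl. The part of these cell types in the levels of Fzd1, Wnt5a, Wnt7a and Celsr1 was not tested. With both mimics edgeR called 0 of 85 and DESeq2 called Celsr1, with 9 at an unadjusted p under 0.05 beside 6.19% of all genes, and the genes of smallest p whose groups were apart were Celsr1 (log2 fold change 1.15), Wnt5a (0.74), Lgr6 (1.53, from under 1 CPM in each group) and Prickle2, a relative of Prickle1 (0.35). Against OL miR-145, edgeR and DESeq2 each called 0 of 84 and none had an unadjusted p under 0.05.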

How the data were processed

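RNA of 10 culture samples was sequenced after a stranded library preparation. The authors quantified reads against GENCODE rat transcripts (Rnor6.0) with Salmon 0.12.0, and the deposited values are estimated counts summed by gene without scaling, here rounded to whole numbers. A second deposited table, made by the authors with DESeq2, holds a normalized mean signal, a log2 fold change, a Wald score and p-values for the miR-145 mimic against its control. These are the study's own results and were left aside, and only the gene symbols of that table were used. Symbols carried by more than 1 gene ID (2 of the pathway lists) were left out. Each comparison was fitted on its 4 libraries with edgeR 4.0.16 (TMM, glmQLFit, glmQLFTest) in R 4.3.3, keeping genes that reached 5 counts in 2 or more libraries, with Benjamini-Hochberg adjustment over all genes tested. The SE is the size of the log2 fold change divided by the square root of F. Counting error is small except for genes of few counts, such as Daam2 in OPCs, and 2 libraries per group limit the precision. Alternatives were DESeq2 1.42.0, its size factors within edgeR, no filter, all 5 groups in a single fit, a replicate block, plain CPM and leaving out each library, where a lone library is assumed to vary like the other group. All members are named, and of the pathway lists up to 6 called genes of largest fold change with a mean of at least 1 CPM or, with none called, up to 4 of smallest p under 0.05 with groups apart. The members and lists were chosen with earlier results of these data known. The edgeR and DESeq2 fits were also run on simulated libraries modelled on OL miR-145 against OL miR-ctl and on the OPC comparison. These libraries were drawn independently, so deviations shared by same-numbered libraries were left out, and the outcome is not given here. Sites of the small RNAs in transcripts were not analysed here.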

Additional observations from a re-analysis of the deposited data

How the results depend on the processing

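The count of members called was 0 in OL miR-145 against OL miR-ctl and became 4 with DESeq2 (649 of all genes called), 2 with all 5 groups in a single fit (79 of all genes) and 5 with a replicate block (2272 of all genes). With both mimics against OL miR-ctl it became 1 with the block, and of all genes DESeq2 called 106, the fit without a filter 1 and the block 132. With both mimics against OL miR-145, DESeq2 called 9 of all genes and the block 184. In OPCs given the inhibitor, 4348 genes were called, 2657 with all 5 groups in a single fit and 2348 to 7133 with 1 library left out, and the members called were 1 to 2. Between control OLs and OPCs, 9042 genes were called, 4780 to 10306 with 1 library left out, and the members called were 5 to 9. The cause of these shifts was not tested. DESeq2's size factors within edgeR changed no call of a member, and plain CPM moved 9 of 45 mean levels by more than 1 SD.

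Signs turned only for fold changes that had not passed the test. Nkd2 in OPCs was 0.014 with all 5 groups in a single fit, and under the block Daam2 in OPCs was 0.064 and Nkd1 between control OLs and OPCs was -0.16. With 1 library left out, log2 fold changes in OL miR-145 against OL miR-ctl ranged from -0.19 to 0.28 for Axin2, from -0.15 to 0.55 for Lef1, from -0.25 to 0.22 for Apcdd1 and from -0.027 to 0.28 for Ctnnb1. With both mimics against OL miR-ctl the ranges were -0.26 to 0.22, -0.39 to 0.37, -0.16 to 0.31 and -0.067 to 0.25 for these 4 genes. With both mimics against OL miR-145 they were -0.38 to 1.40 for Nkd1, -0.64 to 0.18 for Lef1, -0.12 to 0.25 for Apcdd1 and -0.20 to 0.089 for Ctnnb1. In OPCs they were -0.050 to 0.0061 for Nkd2, -0.64 to 1.00 for Daam2 and -0.081 to 0.0027 for Ctnnb1, and between control OLs and OPCs -1.22 to 0.82 for Nkd1.

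The study defines a primary culture replicate by an individual mouse, with no separate definition for rats. It does not state that the same number in different groups marks the same animal. Deviations of same-numbered libraries from their group means correlated across genes with r = 0.404, 0.468 and 0.631 in the 3 comparisons among OL groups, with -0.152 in OPCs and with 0.0668 between control OLs and OPCs. Under the replicate block, Nkd1 was called in OL miR-145 (log2 fold change 1.36, edgeR adjusted p = 8.63e-05) and with both mimics (1.87, 0.0289), as were Tcf7l2, Prickle1, Nkd2 and Daam2 in OL miR-145. Differences in Lef1, Axin2, Apcdd1 and Ctnnb1 among OL groups were not detected with 2 libraries per group.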
